A study of Homo sapiens with 16 samples.

Results

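RSPO3 and 8 other genes, AMIGO2, ITPRIP, TNFRSF9, ADPRHL1, ZBTB38, SLC25A27, RNASE1 and DHRS2, were followed across all 16 libraries of an RNA sequencing study of hydroxyurea (HU) in U2OS cells. These 9 genes, of 58735 in the deposited table, lie outside the cell-cycle and p53 gene sets and were chosen by their difference in log2 FPKM between HU-treated and untreated libraries. As that contrast chose them, their HU response is described here without a test. For these 9 genes, tests are given only for other contrasts, which share no library with it or are balanced over it, although the genes were proposed with results of all 16 libraries known.

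U2OS is a human osteosarcoma cell line. Cells were transfected with siNT, a control siRNA without a target, or with siSETD2, which targets the mRNA of the histone H3 lysine methyltransferase SETD2, and RNA was taken 48 h later. Within each siRNA, cells were left untreated, or were given 2 mM HU, 2 µM VE-822, or 2 mM HU with 2 µM VE-822, in each case for 4 h. HU blocks ribonucleotide reductase, so that replication forks stall for lack of deoxynucleotides. VE-822 is an inhibitor of ATR, the kinase that answers stalled forks. Each of the 8 groups held 2 libraries, numbered R1 and R2. The labels do not say whether R1 and R2 were separate cultures, so the error behind each p-value is the spread of these libraries and may be only technical. All groups come from 1 transfected line, knockdown was partial, and the siNT cells carry a control siRNA rather than no transfection.

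Levels are FPKM, fragment numbers divided by exon length and sequencing depth, and differences are on the scale log2(FPKM + 1), which understates changes of genes near 1 FPKM. SETD2 itself lay between 7.34 and 9.25 FPKM in the 8 siNT libraries and between 2.01 and 4.62 FPKM in the 8 siSETD2 libraries, so the label of every library matched its siRNA. Libraries held 22310806 to 31101932 fragments. Of 8 mesenchymal markers, 5 had a mean of at least 1 FPKM (VIM, COL1A1, SPARC, RUNX2 and CDH2), while ALPL, COL1A2 and TWIST1 did not. Of the other cell-type markers, EPCAM and SNAP25 reached 1 FPKM, and 0 of 6 blood and 0 of 4 endothelial markers did. The 4 libraries with VE-822 alone stood apart from the other 12 on the first principal component, which held 46.1% of the variance. They scored 29.46 to 35.27 there, the other R2 libraries 0.86 to 7.23 and the other R1 libraries -33.32 to -20.54. For any gene, an effect of VE-822 given alone and a difference of this set of 4 libraries cannot be told apart. In bulk RNA, fewer cells that express a gene and less of its RNA per cell cannot be told apart either.

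The 9 genes have little known function in common. RSPO3 encodes a secreted R-spondin, which binds LGR receptors together with the membrane ubiquitin ligases ZNRF3 and RNF43, removes these ligases from the cell surface and so leaves more Frizzled and LRP receptors to receive Wnt signals. TNFRSF9 (CD137) is a co-stimulatory receptor of the tumour necrosis factor receptor family, AMIGO2 a transmembrane adhesion protein with leucine-rich repeats, and RNASE1 a secreted ribonuclease. ITPRIP binds inositol trisphosphate receptors, the calcium channels of the endoplasmic reticulum. ADPRHL1 belongs to the ADP-ribosylhydrolase family and is best known from heart muscle, and ZBTB38 is a zinc-finger protein that binds methylated CpG. SLC25A27 (UCP4) is a mitochondrial carrier of the uncoupling protein group, and DHRS2 is a short-chain dehydrogenase/reductase.

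The promoters of 4 of these genes are shown because they carry the contrasts described further on. Of the 9, RSPO3 had the largest HU fold and DHRS2 was the most abundant. AMIGO2 and TNFRSF9 differed in opposite directions between HU with VE-822 and VE-822 alone, the set of libraries that stood apart. Each line gives the 250 bases before the RefSeq start site (GRCh38.p14), read 5′ to 3′ on the gene's strand, with the matches to the searched motifs in capitals.
RSPO3: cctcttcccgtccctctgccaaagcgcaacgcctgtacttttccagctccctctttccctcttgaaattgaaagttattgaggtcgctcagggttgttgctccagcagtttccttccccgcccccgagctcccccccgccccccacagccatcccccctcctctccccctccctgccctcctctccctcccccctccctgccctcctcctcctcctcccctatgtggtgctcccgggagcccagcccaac
AMIGO2: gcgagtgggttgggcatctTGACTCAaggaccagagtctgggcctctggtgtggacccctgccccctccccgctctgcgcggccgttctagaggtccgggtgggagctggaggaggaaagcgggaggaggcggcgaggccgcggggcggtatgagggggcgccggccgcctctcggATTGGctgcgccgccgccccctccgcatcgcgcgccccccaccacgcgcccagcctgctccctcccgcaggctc
TNFRSF9: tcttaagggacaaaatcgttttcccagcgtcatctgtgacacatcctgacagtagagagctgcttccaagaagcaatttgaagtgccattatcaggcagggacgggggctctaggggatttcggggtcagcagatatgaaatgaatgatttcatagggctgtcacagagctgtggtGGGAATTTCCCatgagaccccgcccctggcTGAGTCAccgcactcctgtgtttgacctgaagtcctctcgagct
DHRS2: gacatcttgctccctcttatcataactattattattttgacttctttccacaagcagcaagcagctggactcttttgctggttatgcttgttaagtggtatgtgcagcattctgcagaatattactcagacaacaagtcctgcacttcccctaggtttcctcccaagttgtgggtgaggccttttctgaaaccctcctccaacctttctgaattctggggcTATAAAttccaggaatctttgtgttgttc
The RSPO3 window (chr6:127118421-127118670, plus strand) held none of the searched letters and was 64.8% G or C. In the AMIGO2 window (chr12:47079952-47080201, minus strand) an AP-1 match, TGACTCA, began 231 bases before the start, and the CCAAT box, read here on its other strand as ATTGG, began 74 bases before it. The TNFRSF9 window (chr1:7940840-7941089, minus strand) held the AP-1 match TGAGTCA at 44 bases before the start, and a stretch with 2 overlapping matches to the 10-letter NF-kB motif, 1 on each strand, at 74 and 73 bases before it. That form was added after the windows had been read, with 1 N more than the form searched first, GGGNNTTCC, which matched 0 of the 9 genes and 6.58% of all promoters. The 10-letter form matched 1 of the 9 and 6.52% of all promoters. The DHRS2 window (chr14:23629865-23630114, plus strand) held TATAAA at 29 bases before the start and was 43.2% G or C.

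Over the RefSeq window nearest each gene's 5′ end (250 bases before to 50 after the start, both strands), TGANTCA was present in 3 of the 9 genes (AMIGO2, TNFRSF9 and RNASE1) and in 7.71% of all 35116 promoters. The CCAAT letters were present in 4 (AMIGO2, ADPRHL1, ZBTB38 and SLC25A27) against 34.6% of all promoters. TATAAA was present in 2 (ADPRHL1 and DHRS2) against 11.5%. The heat-shock element GAANNTTC was present in 2 (ITPRIP and TNFRSF9) against 6.77%, CACGTG in 1 (ADPRHL1) against 7.26%, and TGACGTCA in 0 against 1.85%. These matches describe letters in a window and say nothing of which factor is bound there.

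Without VE-822, the libraries with HU and those without did not overlap for 7 of the 9 genes: RSPO3, AMIGO2, ITPRIP, TNFRSF9 and ADPRHL1 lay higher in HU, and SLC25A27 and RNASE1 lay lower. Of all 13088 genes tested, 4.3% did not overlap in this contrast, but nothing is read from the excess because the contrast chose the genes. ZBTB38 was higher and DHRS2 lower in HU within each replicate number and siRNA, with overlapping libraries.

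**Figure D1:**
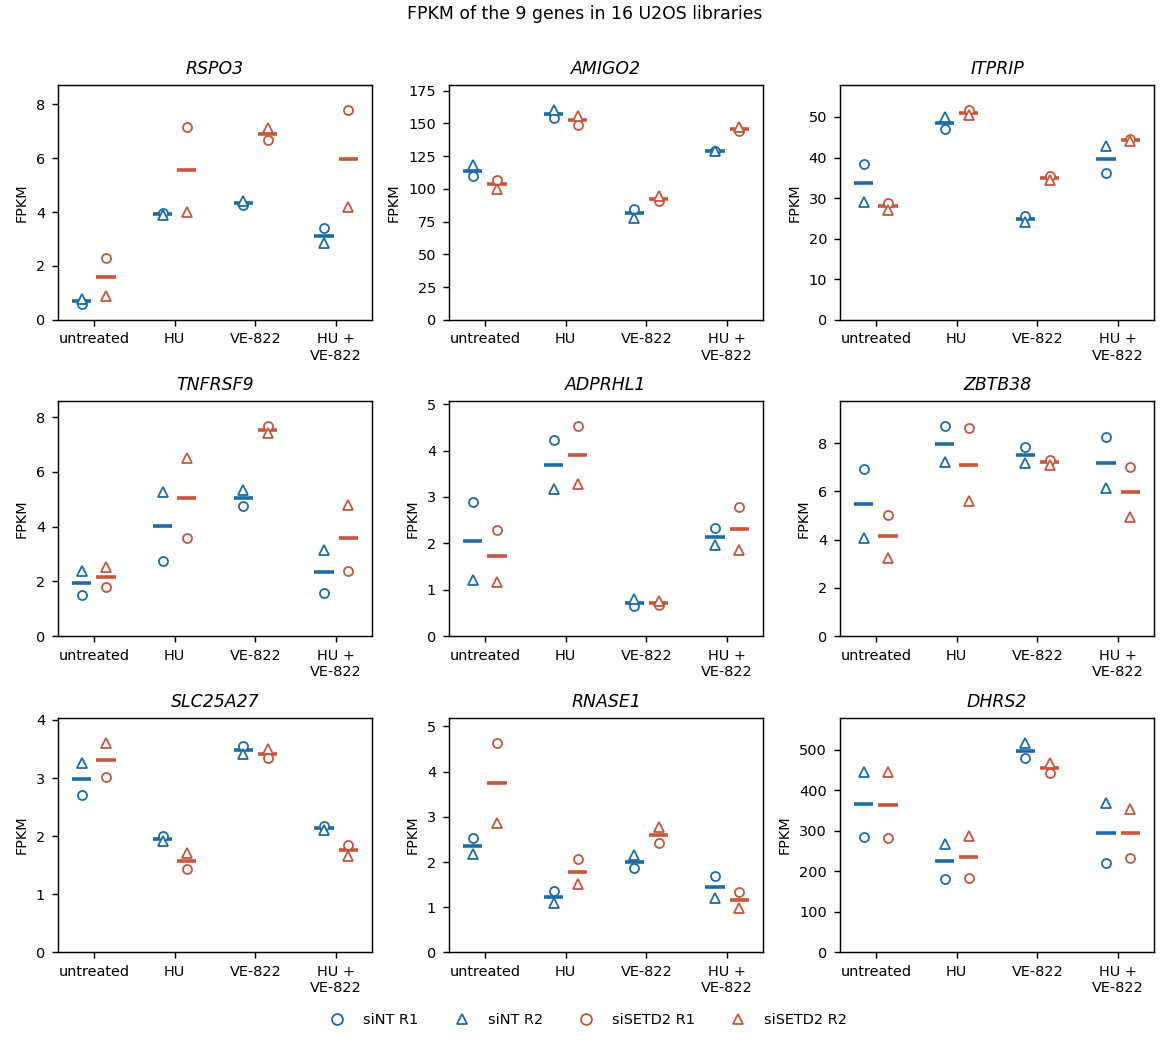
FPKM of each gene (vertical axis, from 0) in the 16 libraries, by drug (horizontal axis) and siRNA (blue siNT, red siSETD2). Circles are R1, triangles R2 and bars the mean of both; RSPO3 was between 0.602 and 2.31 FPKM in the 4 untreated libraries and between 2.83 and 7.78 FPKM in the 12 treated ones.

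RSPO3 (ENSG00000146374, chr6:127118604-127197765 on the plus strand, GRCh38) overlaps no other annotated gene. In untreated siNT cells it measured 0.602 FPKM in R1 and 0.785 FPKM in R2, and in siNT cells with HU 3.97 and 3.88 FPKM. In siSETD2 cells it measured 2.31 and 0.890 FPKM untreated and 7.14 and 4.00 FPKM with HU. All 4 HU libraries thus lay above all 4 untreated ones, with a fold of 5.66 in siNT and of 3.48 in siSETD2 cells. VE-822 alone gave 4.24 and 4.42 FPKM with siNT and 6.66 and 7.12 FPKM with siSETD2, which is 6.25-fold and 4.31-fold the untreated mean. Both drugs together gave 3.41 and 2.83 FPKM with siNT and 7.78 and 4.18 FPKM with siSETD2. Every treated library, whichever drug it had, lay above every untreated library. Ordered by mean, the groups ran from 0.693 ± 0.129 FPKM (mean ± SD, n = 2) in untreated siNT through 1.60 ± 1.003 in untreated siSETD2, 3.12 ± 0.409 in siNT with both drugs, 3.93 ± 0.0658 in siNT with HU and 4.33 ± 0.128 in siNT with VE-822 to 5.57 ± 2.22, 5.98 ± 2.54 and 6.89 ± 0.322 in siSETD2 with HU, with both drugs and with VE-822. The first 4 groups did not overlap with their neighbours in this order, and from siNT with VE-822 upward each group overlapped with the next. The lowest value rests on 46 fragments, so counting error is not negligible there.

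TNFRSF9 (ENSG00000049249, chr1:7915894-7943165, minus strand) was above its untreated range in HU and in VE-822 alone. Untreated libraries held 1.52 (R1) and 2.39 FPKM (R2) with siNT and 1.79 and 2.51 FPKM with siSETD2. With HU the values were 2.74 and 5.28 FPKM (siNT) and 3.59 and 6.50 FPKM (siSETD2), all above the untreated ones, at 2.05 and 2.35 times their mean. VE-822 alone gave 4.76 and 5.32 FPKM with siNT and 7.66 and 7.42 FPKM with siSETD2. Both drugs together gave 1.56 and 3.15 FPKM with siNT and 2.38 and 4.77 FPKM with siSETD2, which overlapped with the untreated libraries. Each library with both drugs was nevertheless above the untreated library of the same siRNA and replicate number. R2 was higher than R1 in each of the 6 groups outside VE-822 alone. A processed pseudogene on the opposite strand inside the locus, AL009183.1, had a mean of 0.0215 FPKM.

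AMIGO2 (ENSG00000139211, chr12:47075707-47079951, minus strand) was an abundant transcript whose libraries separated by drug with little spread. Untreated cells held 110.0 and 117.9 FPKM with siNT and 106.8 and 100.03 FPKM with siSETD2. HU gave 154.2 and 160.2 FPKM with siNT and 149.1 and 155.6 FPKM with siSETD2, all above the untreated libraries, at 1.38 and 1.47 times their mean. VE-822 alone gave 84.9 and 77.7 FPKM with siNT and 90.5 and 94.3 FPKM with siSETD2, all below the untreated libraries. With both drugs the values were 128.8 and 129.1 FPKM (siNT) and 144.1 and 147.0 FPKM (siSETD2), between the untreated libraries and those with HU alone. Its 5′ end overlaps PCED1B on the opposite strand by 349 bases, a gene with a mean of 0.515 FPKM.

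RNASE1 (ENSG00000129538, chr14:20801228-20803278, minus strand) was low throughout, and its lowest value rests on 39 fragments. Untreated cells held 2.54 and 2.18 FPKM with siNT and 4.64 and 2.87 FPKM with siSETD2. With HU the values were 1.36 and 1.09 FPKM and 2.06 and 1.51 FPKM, which is 51.9% and 47.5% of the untreated mean. VE-822 alone gave 1.86 and 2.15 FPKM and 2.43 and 2.77 FPKM, and both drugs gave 1.69 and 1.21 FPKM and 1.34 and 0.978 FPKM. Libraries that had HU, with or without VE-822, all lay below the untreated libraries, while those with VE-822 alone overlapped with them.

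ITPRIP (ENSG00000148841, chr10:104309698-104338448, minus strand) measured 38.4 and 29.1 FPKM in untreated siNT cells and 28.8 and 27.1 FPKM in untreated siSETD2 cells. HU gave 47.1 and 50.1 FPKM and 51.7 and 50.4 FPKM, at 1.44 and 1.83 times the untreated mean, and all 4 libraries lay above the untreated ones. VE-822 alone gave 25.5 and 24.1 FPKM with siNT and 35.4 and 34.4 FPKM with siSETD2, a range that overlapped with the untreated libraries. Both drugs gave 36.1 and 42.9 FPKM with siNT and 44.6 and 44.1 FPKM with siSETD2, all below the 4 HU libraries. An overlapping lincRNA on the opposite strand, AL162742.1, had a mean of 0.567 FPKM.

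ADPRHL1 (ENSG00000153531, chr13:113399610-113453524, minus strand) lay above its untreated level in HU and below it in VE-822 alone. Untreated cells held 2.89 and 1.21 FPKM with siNT and 2.28 and 1.16 FPKM with siSETD2. HU gave 4.22 and 3.16 FPKM and 4.52 and 3.28 FPKM, at 1.80 and 2.26 times the untreated mean. VE-822 alone gave 0.643 and 0.801 FPKM and 0.678 and 0.756 FPKM, all below every other library. Both drugs gave 2.32 and 1.96 FPKM and 2.78 and 1.85 FPKM, within the range of the untreated libraries. R1 was higher than R2 in each of the 6 groups outside VE-822 alone, as it was for ZBTB38 and RNASE1.

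ZBTB38 (ENSG00000177311, chr3:141324213-141449792, plus strand) measured 6.93 and 4.05 FPKM in untreated siNT cells and 5.04 and 3.25 FPKM in untreated siSETD2 cells. HU gave 8.69 and 7.20 FPKM and 8.61 and 5.58 FPKM, at 1.45 and 1.71 times the untreated mean. The spread between R1 and R2 was about as wide as the shift, so HU and untreated libraries overlapped over both siRNAs. VE-822 alone gave 7.82 and 7.19 FPKM and 7.32 and 7.11 FPKM, all above the untreated libraries, and both drugs gave 8.24 and 6.14 FPKM and 6.99 and 4.92 FPKM. Its 5′ part shares 43541 bases with PXYLP1 on the same strand, which had a mean of 2.06 FPKM and a log2 difference of -0.18 between HU and untreated libraries.

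SLC25A27 (ENSG00000153291, chr6:46652915-46678193, plus strand) separated the libraries by the presence of HU. Without HU it measured 2.71 and 3.26 FPKM untreated and 3.55 and 3.42 FPKM in VE-822 with siNT, and 3.01 and 3.61 FPKM untreated and 3.35 and 3.50 FPKM in VE-822 with siSETD2. With HU it measured 2.00 and 1.92 FPKM without VE-822 and 2.18 and 2.12 FPKM with it in siNT cells. In siSETD2 cells with HU the values were 1.43 and 1.71 FPKM without VE-822 and 1.85 and 1.67 FPKM with it. All 8 libraries that had HU lay below all 8 that did not. The HU mean was 65.5% of the untreated mean with siNT and 47.5% with siSETD2.

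DHRS2 (ENSG00000100867, chr14:23630115-23645639, plus strand) was the most abundant of the 9 genes. Untreated cells held 285.7 and 446.1 FPKM with siNT and 283.2 and 446.5 FPKM with siSETD2. HU gave 180.5 and 268.5 FPKM and 182.9 and 287.8 FPKM, at 61.4% and 64.5% of the untreated mean. R2 was higher than R1 in each of the 6 groups outside VE-822 alone, by so much that R2 with HU overlapped with R1 untreated. VE-822 alone gave 478.8 and 517.5 FPKM and 443.7 and 466.7 FPKM, and both drugs gave 220.1 and 368.5 FPKM and 232.6 and 355.1 FPKM.

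Among cells given VE-822, those that also had HU differed from VE-822 alone in 7 of the 9 genes, a contrast that shares no library with HU against untreated. AMIGO2, ITPRIP and ADPRHL1 rose, which is the direction they had in HU without VE-822. SLC25A27, RNASE1 and DHRS2 fell, again in the direction they had without it. TNFRSF9 fell, against the direction it had without VE-822 (the difference between these responses was not tested), and RSPO3 and ZBTB38 did not pass the test. In this contrast 29.5% of all 13088 genes passed the same test (17.5% higher and 12% lower), and 39.1% had libraries that did not overlap, so a call here is common. The comparison group is the set of 4 libraries that stood apart on the first component, and the part of that in each difference was not tested.

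The AMIGO2 difference was 0.66 (log2, SE 0.0783, adjusted p = 0.000346 over all genes tested), 0.63 within R1 and 0.68 within R2. ITPRIP rose by 0.49 (SE 0.0978, adjusted p = 0.00473) and ADPRHL1 by 0.90 (SE 0.195, adjusted p = 0.00709). On the FPKM scale ADPRHL1 with both drugs was 2.97 times its VE-822 level in siNT and 3.23 times in siSETD2 cells, and with a pseudocount of 0.1 its log2 difference was 1.49 in place of 0.90. These 3 genes had non-overlapping libraries and kept their call under all 24 alternative settings. Set beside untreated cells, the libraries with both drugs lay above the untreated range for AMIGO2 and inside it for ADPRHL1, and those with VE-822 alone lay below it for both.

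SLC25A27 fell by 0.60 (SE 0.0805, adjusted p = 0.000677), with differences of -0.56 within R1 and -0.63 within R2, and kept its call under all 24 settings. RNASE1 fell by 0.52 (SE 0.134, adjusted p = 0.0153), and its libraries did not overlap. With a replicate block for the 12 libraries outside VE-822 alone its adjusted p in limma was 0.00036, and with the block over all 8 groups 0.0037. Its call was lost when libraries were rescaled to the same sum (adjusted p = 0.0673) and without R2 of siNT with VE-822 (0.0551), R2 of siNT with both drugs (0.0509) or R2 of siSETD2 with VE-822 (0.0568). With a pseudocount of 0.1 its difference was -0.78, and from recovered fragments it was -0.81. DHRS2 fell by 0.73 (SE 0.252, adjusted p = 0.0489), and its libraries did not overlap either. With the same block the adjusted p of DHRS2 was 2.13e-05, and over all 8 groups 0.00138, although no label gives that pairing. Without the block its call sat at the threshold, and it was lost in 10 of 24 settings. These were the 2 looser filters on low values (0.119 and 0.0676) and the fits without R1 or R2 of siNT with HU (0.0528 and 0.0527), R1 or R2 of siNT with VE-822 (0.0943 and 0.122), R1 of siNT with both drugs (0.165), R1 or R2 of siSETD2 with VE-822 (0.104 and 0.118) and R1 of siSETD2 with both drugs (0.167). All these are adjusted p-values of limma, and in each of them DHRS2 kept its sign.

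TNFRSF9 fell by 0.92 (SE 0.244, adjusted p = 0.0174), and its mean with both drugs was 46.7% of that with VE-822 alone in siNT and 47.4% in siSETD2 cells. With the replicate block for 12 libraries its adjusted p in limma was 1.21e-05, and over all 8 groups 0.000558. Within each siRNA its libraries did not overlap, whereas over both siRNAs they narrowly did. The highest value with both drugs was 4.773 FPKM (siSETD2, R2) and the lowest with VE-822 alone 4.765 FPKM (siNT, R1). The call was lost without R2 of siNT with VE-822 (adjusted p = 0.0563), R1 of siNT with both drugs (0.0669), R1 of siSETD2 with VE-822 (0.0535) or R1 of siSETD2 with both drugs (0.0718). RSPO3 differed by -0.30 (SE 0.211, adjusted p = 0.2999), with -0.03 within R1 and -0.57 within R2, and ZBTB38 by -0.16 (SE 0.187, adjusted p = 0.539). For RSPO3 the alternatives gave -0.49 to -0.11, all below 0. HU given with VE-822 thus showed no further rise of RSPO3, and the lower value did not pass the test.

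**Figure D2:**
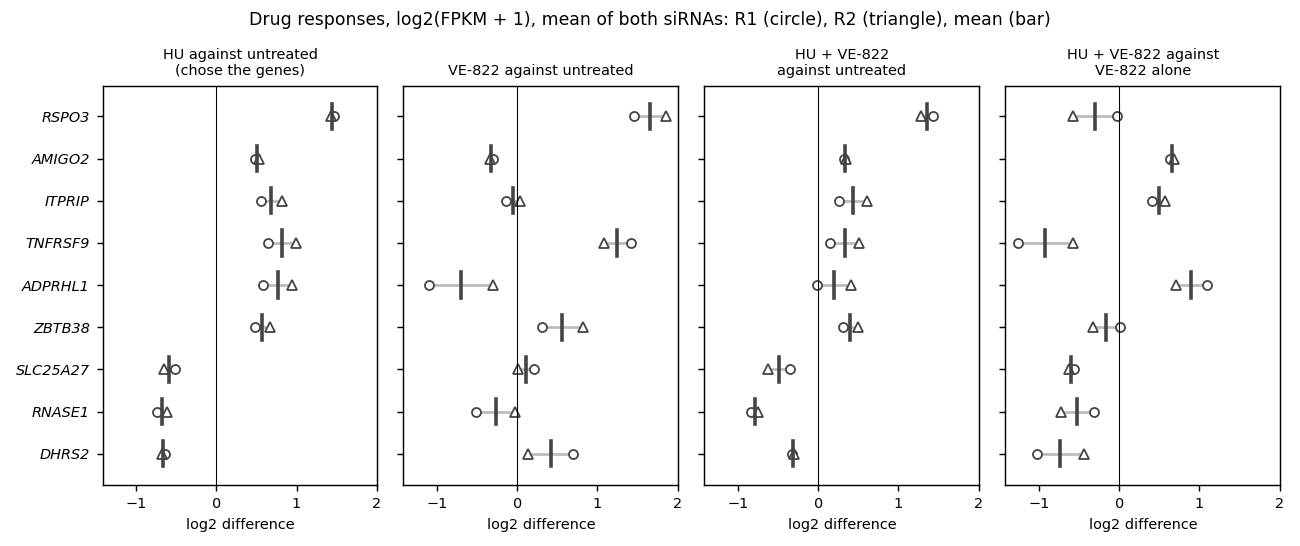
Differences in log2(FPKM + 1), averaged over both siRNAs, for the 9 genes in 4 contrasts (1 panel each). Circles are R1, triangles R2 and bars their mean; the first panel chose the genes, and in the last panel AMIGO2, ITPRIP and ADPRHL1 lie right of 0 and the other 6 means left of it, RSPO3 at -0.30.

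The remaining drug contrasts share their HU or untreated libraries with the one that chose the genes, so they are given as values. VE-822 against untreated differed by 1.66 for RSPO3, 1.25 for TNFRSF9 and 0.56 for ZBTB38, by 0.42 for DHRS2 and 0.11 for SLC25A27, and by -0.70 for ADPRHL1, -0.32 for AMIGO2, -0.27 for RNASE1 and -0.05 for ITPRIP (log2), with non-overlapping libraries for 5 of 9 (RSPO3, TNFRSF9 and ZBTB38 higher, AMIGO2 and ADPRHL1 lower) against 31.1% of all genes. Adding VE-822 to HU moved RSPO3 by -0.09, AMIGO2 by -0.17, ITPRIP by -0.25, TNFRSF9 by -0.49, ADPRHL1 by -0.57, ZBTB38 by -0.17 and RNASE1 by -0.12, and SLC25A27 and DHRS2 by 0.10 and 0.35. In this contrast AMIGO2, ITPRIP and ADPRHL1 had non-overlapping libraries, lower with both drugs (3 of 9, against 6.72% of all genes). Compared with untreated cells, both drugs together left 1.36 for RSPO3, 0.33 for AMIGO2, 0.44 for ITPRIP, 0.33 for TNFRSF9, 0.20 for ADPRHL1, 0.40 for ZBTB38, -0.49 for SLC25A27, -0.79 for RNASE1 and -0.32 for DHRS2. RSPO3 and AMIGO2 lay above all untreated libraries there, and SLC25A27 and RNASE1 below them (4 of 9, against 7.11%).

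The siRNA contrast, siSETD2 against siNT over the 4 treatments, was balanced over the drugs. RSPO3 was higher with siSETD2 in 8 of 8 pairs of equal treatment and replicate number, and so was TNFRSF9. ZBTB38 was lower in 8 of 8 pairs, and RNASE1 and ITPRIP were higher in 6 of 8. Among all genes tested, 3.95% were higher in all 8 pairs and 5.94% lower in all 8. None of the 9 genes passed the test (0 of 9, against 0.13% of all genes, or 17 of 13088, with SETD2 at the first rank by p), and 10% of all genes had an unadjusted p under 0.05.

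For RSPO3 the siSETD2 mean was 2.31 times the siNT mean untreated, 1.42 times in HU, 1.59 times in VE-822 and 1.92 times with both drugs, and in each treatment both siSETD2 libraries lay above both siNT libraries. The averaged difference was 0.55 (SE 0.149, adjusted p = 0.185), 0.82 within R1 and 0.28 within R2. With a replicate block for the 12 libraries outside VE-822 alone the adjusted p was 0.0211, and with the block over all 8 groups 0.0635. Without R2 of untreated siSETD2 the difference was 0.65 (adjusted p = 0.0461), and without the 4 VE-822-alone libraries it was 0.55 (adjusted p = 0.703, or 0.120 with the block). Knockdown of SETD2 was deeper in R1 than in R2 in untreated siSETD2 cells (2.01 against 4.17 FPKM), with HU (2.22 against 4.13 FPKM) and with both drugs (2.64 against 3.67 FPKM), and its part in the larger R1 difference was not tested. In VE-822 alone, where R1 held more SETD2 than R2 (4.62 against 3.95 FPKM), the RSPO3 difference was alike in both.

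TNFRSF9 differed by 0.33 (SE 0.172, adjusted p = 0.578), 0.36 within R1 and 0.30 within R2, and with the replicate block for 12 libraries the adjusted p was 0.0157 (0.133 over all 8 groups, 0.152 without the VE-822-alone libraries). Its siSETD2 mean was 109.9%, 126%, 149.5% and 152% of the siNT mean untreated, in HU, in VE-822 and with both drugs. RNASE1 differed by 0.22 (SE 0.0945, adjusted p = 0.467): its siSETD2 libraries lay above the siNT libraries untreated, in HU and in VE-822, at 1.59, 1.46 and 1.30 times their mean, and overlapped with them at 79.7% with both drugs. ZBTB38 differed by -0.19 (SE 0.132, adjusted p = 0.698), at 75.5% of siNT untreated and 96.0% in VE-822. The remaining 5 genes differed by -0.08 to 0.12. Of these, ITPRIP was 82.8% of siNT in untreated cells and 1.41 times siNT in VE-822, with libraries that did not overlap in either.

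**Figure D3:**
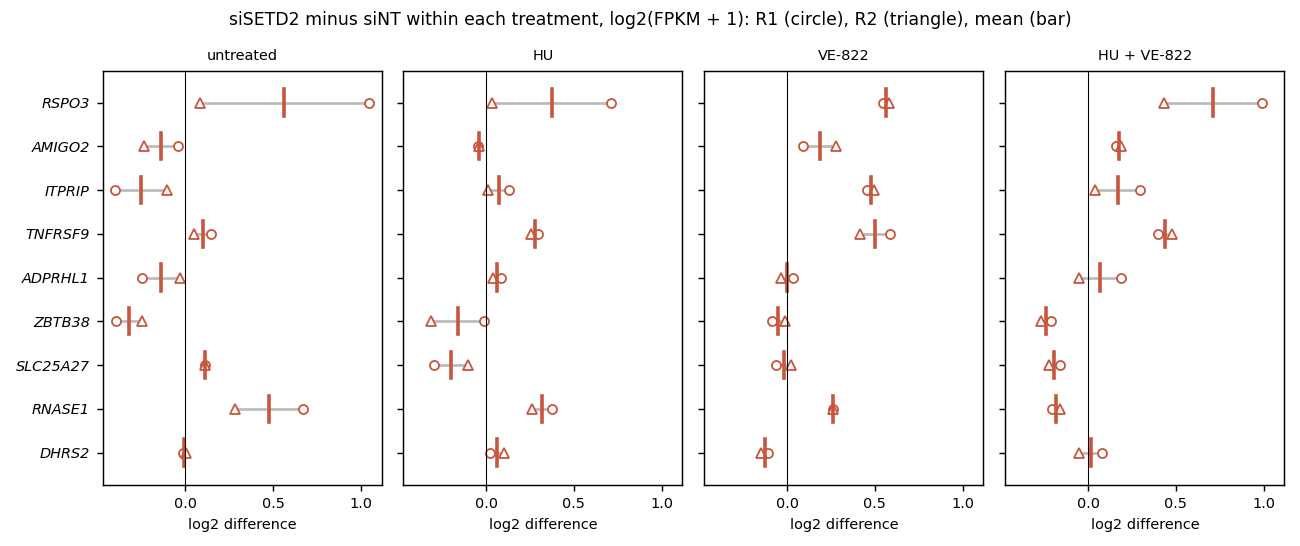
siSETD2 minus siNT in log2(FPKM + 1) for each gene within each treatment (1 panel per treatment). Circles are R1, triangles R2 and bars their mean; RSPO3 and TNFRSF9 lie right of 0 for both replicate numbers in all 4 panels, and ZBTB38 left of it.

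The size of the HU response was compared between siRNAs in the libraries without VE-822. The difference, siSETD2 minus siNT, was -0.19 for RSPO3 (SE 0.422), 0.09 for AMIGO2 (SE 0.157), 0.32 for ITPRIP (SE 0.196), 0.18 for TNFRSF9, 0.20 for ADPRHL1, 0.16 for ZBTB38, -0.32 for SLC25A27 (SE 0.161), -0.16 for RNASE1 and 0.06 for DHRS2. None of the 9 passed the limma test, and 0% of all genes did (97 genes at an unadjusted p under 0.05, and 0 calls by limma-voom on recovered fragments). The errors are wide: for RSPO3 the value ran from -0.60 to 0.21 when single libraries were left out, so these libraries do not show whether SETD2 siRNA changes the HU response.

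Of 56 listed genes of the R-spondin and Wnt pathway, 37 besides RSPO3 were tested. In HU against untreated 0 of them passed, in a contrast where 0.107% of all genes did (7.58% at an unadjusted p under 0.05), so nothing particular to the pathway is read from that count. RSPO4 was the other R-spondin present, at group means of 8.71 to 11.1 FPKM, while RSPO1 and RSPO2 stayed at or below 0.086 FPKM in each group. Among the receptors, LGR4 had group means of 0.801 to 1.17 FPKM outside VE-822 alone and LGR5 0.517 to 0.725 FPKM, and of the ligases ZNRF3 had 6.28 to 9.01 FPKM and RNF43 0.080 to 0.165 FPKM. The HU difference was 0.04 for LGR4 and 0.40 for ZNRF3 (adjusted p = 0.567 for ZNRF3). AXIN2 and NOTUM, a pair of well-known Wnt target genes, differed by -0.20 and -0.04 in HU (adjusted p = 0.910 for AXIN2).

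With VE-822 alone against untreated, 11 of the 37 rose and 1 fell, with a median difference of 0.08 beside -0.03 for all genes. Of all genes, 24.7% passed in either direction (11.4% higher and 13.4% lower). NOTUM rose from group means of 1.53 and 1.43 FPKM (siNT and siSETD2) to 9.05 and 8.62 FPKM, a log2 difference of 2.03 (adjusted p = 0.00224). AXIN2 rose from 0.684 and 0.595 FPKM to 3.49 and 3.05 FPKM (1.40, adjusted p = 0.000297), LEF1, a transcription factor of the pathway, from 1.65 and 1.91 FPKM to 4.95 and 4.03 FPKM (0.98, adjusted p = 0.000594), and the secreted Wnt antagonist SFRP1 by 1.52. The others that rose were LGR4, ZNRF3, FZD1, FZD4, FZD5, FZD7 and KREMEN1, and CSNK1A1 fell. With both drugs against VE-822 alone, 10 fell (LGR4, LRP5, FZD1, FZD3, FZD4, AXIN2, LEF1, NOTUM, SFRP1 and KREMEN1) and 3 rose (RSPO4, GSK3B and CSNK1A1), where 29.5% of all genes passed (12% lower and 17.5% higher), with a median of -0.21 beside 0.05 for all genes. NOTUM was at 1.46 and 1.54 FPKM with both drugs, its untreated level, whereas RSPO3 stayed above its untreated range. With HU alone RSPO3 lay above its untreated range, while the means of AXIN2 and NOTUM were not higher and that of ZNRF3 was, none passing the test. With both drugs RSPO3 was high and NOTUM near its untreated level. For AXIN2 and LEF1 in that condition only the fall from VE-822 alone is stated. With VE-822 alone RSPO3, AXIN2, LEF1 and NOTUM were all high. Any link between RSPO3 and the level of these genes was not tested.

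**Figure D4:**
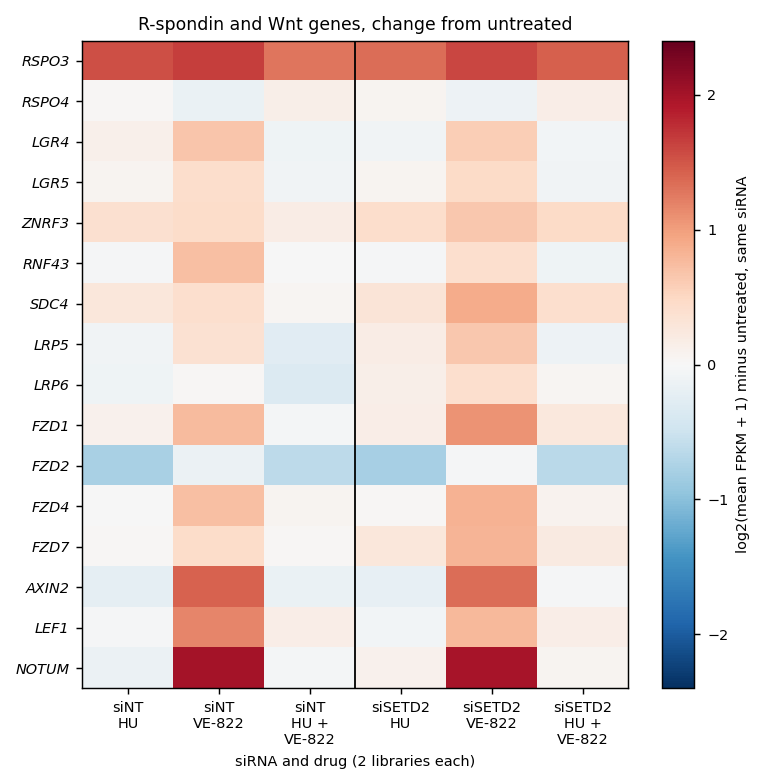
Change from untreated of the same siRNA, as log2(mean FPKM + 1), for 16 genes of the R-spondin and Wnt list (rows) in 3 drug conditions and 2 siRNAs (columns, mean of 2 libraries), on a colour scale from blue (lower) to red (higher). RSPO3 is red in all 6 columns, while AXIN2, LEF1 and NOTUM are red in the VE-822 columns.

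Among the partners of TNFRSF9, the ligand TNFSF9 was present at group means of 21.2 to 30.3 FPKM with a HU difference of 0.27 (adjusted p = 0.948). Of the adapters, TRAF1 went from 4.06 to 7.03 FPKM with siNT and from 5.32 to 9.24 FPKM with siSETD2 under HU, a difference of 0.67 that did not pass (adjusted p = 0.360), and TRAF2 differed by -0.21. Of 7 partners tested, BIRC3, an inhibitor of apoptosis, fell (-1.20, adjusted p = 0.00242) and TRAF3 rose (0.27, adjusted p = 0.0256) with both drugs against VE-822 alone, where 29.5% of all genes passed. BIRC3 had its highest means, 31.6 and 57.6 FPKM, with VE-822 alone. Of 13 other receptors of the family, TNFRSF8 and TNFRSF10B rose in that contrast and TNFRSF1A, TNFRSF21 and NGFR fell, against the same 29.5% of all genes. NGFR had 7.95 and 10.0 FPKM with VE-822 alone and 0.408 to 0.585 FPKM in the other groups. FAS, a death receptor and well-known p53 target, differed by 0.77 in HU (adjusted p = 0.163).

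The families of the other genes are given by their counts with both drugs against VE-822 alone, to be read beside the 29.5% of all genes called there, and no family is set apart by them. AMIGO1 had 4.06 to 7.12 FPKM with a HU difference of 0.00, and AMIGO3 stayed at or below 0.0206 FPKM. Of 10 adhesion proteins of the AMIGO list, FLRT2 rose and LRFN3, LRIG2 and LRIG3 fell in that contrast, against 29.5% of all genes called. Of 4 genes beside ITPRIP, 0 passed in that contrast: the receptors ITPR1, ITPR2 and ITPR3 differed by -0.10, -0.08 and 0.29, and the paralog ITPRIPL2 by -0.19. Of 8 ADP-ribose genes beside ADPRHL1, PARP1, which makes poly(ADP-ribose) at DNA breaks, rose (0.43, adjusted p = 0.0103), and the ADP-ribosylhydrolase ADPRHL2 differed by 0.14. Of 11 genes in the methyl-CpG list beside ZBTB38, MBD2 rose (0.64, adjusted p = 0.00173), while the paralogs ZBTB4 and ZBTB33 differed by 0.16 and -0.15. MCM10, a replication gene that ZBTB38 is known to repress, differed by 0.28 in HU (adjusted p = 0.781). Of 7 carriers beside SLC25A27, the adenine nucleotide translocator SLC25A5 rose (0.32, adjusted p = 0.0358), and UCP2 and SLC25A14 differed by 0.33 and -0.13. Of 2 genes beside RNASE1, the secreted ribonuclease ANG fell (-1.32, adjusted p = 2.38e-05), with 3.25 and 3.61 FPKM in VE-822 alone and 0.669 to 1.17 FPKM in the other groups, and RNH1, the cytosolic inhibitor that binds both, differed by 0.20. Of 7 dehydrogenases beside DHRS2, DHRS4 and DHRS11 rose and DHRS7B and DHRS13 fell. DHRS4 has near-identical copies, so its value is uncertain. In the siRNA contrast and in the difference of the HU response, 0 genes of the 10 lists passed, the 9 genes included.

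Across the 16 libraries, the 9 genes fell into patterns that were only partly shared. AMIGO2 and ITPRIP varied most alike (Pearson r of log2(FPKM + 1) 0.89), followed by AMIGO2 with ADPRHL1 (0.86), and ADPRHL1 and DHRS2 varied most in opposition (-0.93). RSPO3 was closest to ZBTB38 (0.62) and TNFRSF9 (0.60) and had r of 0.11 with AMIGO2. Among all genes tested, the closest to RSPO3 were TM4SF1 (0.92), ADTRP (0.87), GCLC (0.86) and HCG11 (0.85). TM4SF1, a membrane protein of the tetraspanin-like group, had 83.7 FPKM in untreated siNT cells, 152 FPKM in HU, 144 FPKM in VE-822 and 145 FPKM with both drugs. Close to AMIGO2 was CSRNP1 (0.94). The 2 closest genes were PTCHD4 (0.95) and AMIGO2 for ITPRIP, ALG10B and GXYLT1 for TNFRSF9 (0.94 each), and NBEAP1 and AC008687.6 for ADPRHL1 (0.97 and 0.96). They were LAMA1 and RECQL for ZBTB38 (0.90 and 0.89), AC233702.1 and AC090774.2 for SLC25A27 (0.95 and 0.94), MT-TS2 and AL355488.1 for RNASE1 (0.90 and 0.89), and AC129926.2 and GPC2 for DHRS2 (0.95 and 0.94). These coefficients describe 16 libraries that share treatments, replicate sets and the VE-822-alone set, so they carry no test.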

How the data were processed

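The authors deposited 1 table of FPKM values for 58735 Ensembl genes in 16 libraries. Per the submitters' processing notes, STAR 2.6.1d, DESeq2 1.26.0, featureCounts 1.5.0-p3 and FastQC were used with hg38. Whether counting used strand, and on which annotation release, is not given in the sources used here, so fragments of overlapping genes on opposite strands cannot be told apart. All 58735 identifiers occur in GENCODE 29, which gave symbols, GRCh38 positions and merged exon lengths. Multiplying FPKM by exon length and 1 factor per library gave whole fragments (tolerance 0.01) for 100% of values above 0, 22310806 to 31101932 per library, with the deposited denominators at 0.940 to 1.07 times the library total. These fragments were used in 1 alternative fit (limma-voom).

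The deposited FPKM were tested on the scale log2(FPKM + 1) by limma-trend without robust estimation (limma 3.58.1, R 4.3.3), with 1 mean per group over the 16 libraries (8 residual degrees of freedom, prior 2.98). The 13088 genes whose mean reached 1 FPKM, the 9 among them, were tested, and Benjamini-Hochberg adjusted p-values over all of them were called under 0.05, on both sides. Checked on simulated data for HU with VE-822 against VE-822 alone (13119 genes), the fit recovered 67% of 97 genes changed 2-fold and 99% of 98 genes changed 4-fold, with 13 false calls. The difference R1 minus R2 correlated across genes at 0.363 to 0.746 in 15 of 15 pairs among the 6 groups outside VE-822 alone, at -0.052 to 0.295 in 12 pairs with 1 VE-822-alone group and at 0.395 between those 2 groups. No label ties equal numbers to a culture or day, so the pairing rests on these correlations and the numbers alone. A replicate block, a term for the number that is 0 with VE-822 alone and leaves 7 residual degrees of freedom, was an alternative.

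The 9 genes, the 10 gene lists and the contrasts were chosen with earlier results of these data known. Named are the 9 genes, SETD2, listed genes that passed a test or are the direct partner or nearest paralog of 1 of the 9, and the genes with the highest Pearson correlation over the 16 libraries (4 for RSPO3, 2 for each other, of which 1 is not reported here). FZD2 and other rows of the Wnt plot were picked for their role. Promoters are RefSeq windows on GRCh38.p14.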

Additional observations from a re-analysis of the deposited data

Results flagged for a closer look

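TNFRSF9 stood out because its libraries moved in opposite directions under HU with and without VE-822. HU against untreated differed by 0.82 (log2) with all 4 HU libraries higher, and HU with VE-822 against VE-822 alone by -0.92 with both libraries of each siRNA lower. The second response minus the first was -1.74. That difference was not tested, because the HU libraries chose the gene, and the second contrast rests on the VE-822-alone libraries that stood apart on the first component. For RSPO3 the same subtraction gave -1.75 and for ZBTB38 -0.73, with a change of sign in both, so this is not particular to TNFRSF9. VE-822 alone against untreated differed by 1.25 for TNFRSF9. Both drugs against untreated differed by 0.15 within R1 and 0.51 within R2. Over both siRNAs, libraries with both drugs and with VE-822 alone overlapped for RSPO3 and, narrowly, for TNFRSF9 (4.773 against 4.765 FPKM). Within siNT the RSPO3 libraries with both drugs also lay below those with VE-822 alone, whereas within siSETD2 they overlapped.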

How the results depend on the processing

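With 2 libraries per group, 16 in all, the tests see mainly large differences, and the lowest values of RSPO3 and RNASE1 rest on 46 and 39 fragments. In HU with VE-822 against VE-822 alone, AMIGO2, ITPRIP, ADPRHL1 and SLC25A27 kept their call in all 24 alternatives, and RSPO3 and ZBTB38 were called in none. The number of genes called was 3857 (2286 higher, 1571 lower), 6397 with the replicate block in 6 groups, and 2269 to 4749 when single libraries were left out. It moved by more than 1.5 times without R2 of siNT with VE-822, R1 of siNT with both drugs, R1 or R2 of siSETD2 with VE-822, or R1 of siSETD2 with both drugs. The split turned to 1678 higher and 2012 lower after median-ratio rescaling, 2532 and 1091 after rescaling to the same sum, and 1787 and 2424 or 2148 and 2329 with no filter or a mean of at least 0.1 FPKM. The median of all genes moved from 0.05 to -0.02 and 0.14 under these rescalings, and the 9 genes kept their signs.

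For siSETD2 against siNT, 17 genes were called (4 higher, 13 lower), 52 with no filter, 5 at a mean of at least 0.1 FPKM, 147 with the replicate block over 8 groups and 508 with it in 6 groups. The split was 11 higher and 13 lower after median-ratio rescaling, and 10 and 2 after rescaling to the same sum. Chosen after seeing the data, leaving out the 4 VE-822-alone libraries gave 0 calls (778 genes at an unadjusted p under 0.05) and 47 with the block. Single libraries left out gave 0 to 208, the highest without R2 of untreated siSETD2. The pairing changed the calls of RSPO3 (0.55, adjusted p = 0.0211 in limma with the block in 6 groups) and TNFRSF9 (0.33, adjusted p = 0.0157) and no other call among the 9 genes. Small differences changed sign without the VE-822-alone libraries, with or without the block: AMIGO2 to -0.0035, ITPRIP to -0.0043 and DHRS2 to 0.022. ADPRHL1 became 0.0059 after median-ratio rescaling and 0.050 after rescaling to the same sum, and DHRS2 0.070 after the latter. With single libraries left out, ADPRHL1 ran from -0.106 to 0.098 and DHRS2 from -0.108 to 0.077.

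For the difference of the HU response, 0 genes were called, 31 with no filter, and 0 to 3 with single libraries left out (3 without R2 of untreated siSETD2). Leaving out single libraries gave -0.596 to 0.212 for RSPO3, -0.196 to 0.552 for TNFRSF9, -0.209 to 0.608 for ADPRHL1, -0.169 to 0.483 for ZBTB38, -0.430 to 0.113 for RNASE1 and -0.263 to 0.392 for DHRS2. The cause of these changes was not tested.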
